A study of Homo sapiens with 18 samples.

Results

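The unfolded protein response and the integrated stress response were followed through 38 listed genes in interleukin-1β (IL-1β)-stimulated ECV304 cells with and without aminaphtone. Members were taken by gene symbol from the arrays: a row (a transcript cluster, the array's unit for a gene) was used where its annotation gave that symbol alone, and the row with the highest mean signal was kept where a gene had more. By that rule 37 of the 38 genes had a row, out of 18377 genes with a single-symbol row, and 36 passed the filter on low signal and were tested. PDIA3, a disulphide isomerase, appeared only in 2 rows that it shares with other symbols. VLDLR, a lipoprotein receptor gene, had a mean log2 signal of 6.18, just under the filter of 6.19 (the 25th percentile of annotated rows).

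Proteins that fail to fold in the endoplasmic reticulum (ER) are sensed by IRE1 (gene ERN1), PERK (gene EIF2AK3) and ATF6. IRE1 splices the XBP1 messenger, ATF6 is cut to release a transcription factor, and both raise chaperones and the machinery that returns misfolded proteins to the cytosol for degradation. PERK phosphorylates the initiation factor eIF2α, as do other kinases that answer amino acid shortage, haem shortage or double-stranded RNA. That shared step slows translation, favours synthesis of ATF4 and is called the integrated stress response, with DDIT3, TRIB3, asparagine synthetase and the serine synthesis enzymes among its targets. Much of the regulation is by splicing, cleavage, phosphorylation and translation, which arrays of total messenger do not measure.

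Treated cells received IL-1β at 100 IU/ml together with aminaphtone, a naphthohydroquinone drug given for capillary fragility, at 6 µg/ml, for 1, 3 or 6 h. Controls received IL-1β at 100 IU/ml and the same volume of plain medium for 1, 3 or 6 h. Each of the 6 groups had 3 arrays of separately run experiments, and all cells had been grown in 10% serum to confluence and held in 1% serum for 24 h beforehand. No cells without IL-1β and none taken before its addition were measured, so time after IL-1β, time after medium change and time in low serum cannot be told apart. ECV304 is an established line labelled endothelial, with epithelial characteristics also stated; it is known from other work to derive from the T24 bladder carcinoma line. Among 11 endothelial markers, PECAM1, VWF, KDR, TEK and ERG lay under the filter, while CDH5, TIE1, CLDN5, ESAM, EGFL7 and ROBO4 lay above it. Among 6 epithelial markers, the keratin genes KRT7, KRT8 and KRT18 had mean log2 signals of 11.36, 12.38 and 11.75. CDH1, KRT19 and EPCAM had lower means of 6.534, 6.705 and 7.457. The 6 tested urothelial markers ranged from 6.507 (UPK3A) to 7.481 (KRT5).

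The values are log2 signals, so 1 unit is a 2-fold difference. Array medians lay between 6.93 and 7.05. The control arrays at 1 h stood apart from each other, with correlations over tested rows of 0.889 to 0.963, against at least 0.97 within each other group. For the 37 genes the median SD was 0.0692 over the aminaphtone arrays at 1 h and 0.377 over the control arrays at 1 h. Control replicate 2 at 1 h had the lowest value of the 18 arrays for 13 of the 37 genes and the highest for 8. A lower signal can reflect fewer cells expressing a gene or less messenger per cell, which bulk RNA does not separate.

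Promoters of members carry known stress elements, and 5 are shown because they hold such motifs in genes of different roles in the response. Sequences are from RefSeq on GRCh38.p14, from 250 bases before to 50 bases after the annotated start, and 35 of the 38 genes matched the table. They cover HSPA5, chr9:125241294-125241593, minus strand, HSP90B1, chr12:103930160-103930459, plus strand and HERPUD1, chr16:56931892-56932191, plus strand. The other two are HYOU1, chr11:119057156-119057455, minus strand, and CEBPG, chr19:33373863-33374162, plus strand. Each is written 5′ to 3′ along the gene, with motif matches on either strand in capitals.
HSPA5: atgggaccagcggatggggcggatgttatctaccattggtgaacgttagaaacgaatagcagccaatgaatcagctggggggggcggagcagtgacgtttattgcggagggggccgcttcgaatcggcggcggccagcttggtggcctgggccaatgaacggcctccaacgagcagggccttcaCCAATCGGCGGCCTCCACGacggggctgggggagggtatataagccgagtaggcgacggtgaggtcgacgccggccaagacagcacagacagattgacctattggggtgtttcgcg
HSP90B1: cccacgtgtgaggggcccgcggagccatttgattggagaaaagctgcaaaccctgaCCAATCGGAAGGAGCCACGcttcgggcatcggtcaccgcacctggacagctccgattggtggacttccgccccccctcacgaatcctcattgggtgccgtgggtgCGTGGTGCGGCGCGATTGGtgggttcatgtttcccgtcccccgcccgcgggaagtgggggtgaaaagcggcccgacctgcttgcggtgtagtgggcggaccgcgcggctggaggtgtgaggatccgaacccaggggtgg
HERPUD1: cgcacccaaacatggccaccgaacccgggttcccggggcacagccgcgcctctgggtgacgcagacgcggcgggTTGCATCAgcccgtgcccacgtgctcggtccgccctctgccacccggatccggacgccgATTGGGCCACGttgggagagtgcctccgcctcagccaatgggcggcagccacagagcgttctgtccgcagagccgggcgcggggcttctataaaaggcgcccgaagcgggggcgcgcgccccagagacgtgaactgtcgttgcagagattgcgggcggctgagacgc
HYOU1: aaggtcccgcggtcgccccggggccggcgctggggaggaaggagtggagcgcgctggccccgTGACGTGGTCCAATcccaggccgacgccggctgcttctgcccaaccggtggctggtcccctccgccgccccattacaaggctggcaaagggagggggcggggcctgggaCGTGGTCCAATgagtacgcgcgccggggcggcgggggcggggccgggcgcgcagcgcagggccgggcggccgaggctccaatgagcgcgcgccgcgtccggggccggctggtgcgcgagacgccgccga
CEBPG: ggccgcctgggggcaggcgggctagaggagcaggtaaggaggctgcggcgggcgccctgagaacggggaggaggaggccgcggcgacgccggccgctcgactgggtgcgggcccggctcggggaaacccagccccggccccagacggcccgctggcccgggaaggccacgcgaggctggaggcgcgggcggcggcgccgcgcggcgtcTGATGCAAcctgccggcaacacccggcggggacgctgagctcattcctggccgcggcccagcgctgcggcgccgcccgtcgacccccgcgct

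The ER stress element (ERSE: CCAAT, 9 bases of any kind, then CCACG) was present in HSPA5, HSP90B1, PDIA6, CRELD2, CALR and CANX. That is 6 of 35 matched promoters (17.1%), and 0.0842% of all 27305 promoters of the same length held it. HSP90B1 had 2 copies, and the single copy of HSPA5 began 66 bases before its start. ERSE-II (ATTGG, 1 base of any kind, then CCACG) was found in SDF2L1, HYOU1 and HERPUD1 (8.57%, against 0.0623% of all promoters). The UPRE core TGACGTGG was found in HYOU1, where it overlaps 1 of its 2 ERSE-II copies (2.86%, against 0.758%). The amino acid response element core TGATGNAA was found in CEBPG, CHAC1 and HERPUD1 (8.57%, against 3.83%). Both strands were searched, and a match describes the letters of this window and no more.

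Between 1 and 6 h after IL-1β, DDIT3 and 5 of the 9 tested integrated stress response targets were lower at 6 h with and without aminaphtone. Chaperone and degradation genes of the ER made up 7 of the 8 rises in controls. With aminaphtone, 7 of the 36 tested genes were lower at 6 h than at 1 h and 2 were higher by limma's test with Benjamini-Hochberg adjustment over all rows. In the controls, 6 were lower and 8 higher. Of all tested rows, 10.7% were lower and 6.01% higher with aminaphtone, and 15.2% were lower and 11.3% higher in controls. The members' shares were 19.4% lower and 5.56% higher with aminaphtone, and 16.7% lower, near the share of all rows, and 22.2% higher in controls. No array is shared by these 2 comparisons, but each gene's spread was estimated over all 18 arrays, so their calls are not fully independent. The overlap of calls over all rows was not counted. All 6 genes lower in controls (DDIT3, TRIB3, PPP1R15A, PSAT1, PHGDH, PSPH) were among the 7 lower with aminaphtone (100% and 85.71% of each list), and DERL2 was the only gene called higher in both. The control count reached 23 without control replicate 1 at 1 h, a fit in which 44.8% of all rows passed, against 26.5% with every array. Leaving out control replicate 2 at 1 h gave 11 (20.7% of all rows), and the calls of HSP90B1, DNAJC3 and EDEM1 were lost. When each comparison was fitted on its own 6 arrays, 16 genes passed with aminaphtone, the same 9 among them, where 32.9% of all rows passed. In controls 4 then passed (DDIT3, PPP1R15A, PHGDH and PSPH, all lower), where 6.89% of all rows passed, and none of the 8 higher genes was kept.

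From 1 to 3 h, 4 genes were lower and 1 was higher with aminaphtone, where 5.45% of all rows were lower and 5.09% higher. In controls 6 were lower and 2 higher, against 7.98% and 4.81% of all rows. DDIT3, TRIB3, PPP1R15A and PSPH were lower and XBP1 higher under both treatments. Fitted on its own 6 arrays, the aminaphtone comparison gave 8 (16.9% of all rows passed) and the control comparison 2, DDIT3 and PSPH (1.44% of all rows). Without control replicate 1 at 1 h the control count was 20 instead of 8, where 36.2% of all rows passed, against 12.8% with every array. Without control replicate 2 at 1 h it was 9, PSAT1 being added (10.6% of all rows). Without control replicate 2 at 1 h the aminaphtone count, which shares its spread with all groups, was 8 instead of 5 (16.7% of all rows). Replicate numbers pair these control arrays by their deviations. With the number as a block, shared by all 18 arrays of both treatments, PHGDH was also lower at 3 h (log2 difference -0.55, adjusted p = 0.0477, against 0.0666 unblocked). In that fit 14.5% of all rows passed. The numbers did not pair the aminaphtone arrays at 1 and 3 h, where the correlations were -0.463, 0.252 and -0.359. From 3 to 6 h no member passed by limma in either treatment. At that adjusted threshold 0.241% of all rows were lower and 0.0253% higher with aminaphtone, and 0.165% lower and 0.348% higher in controls. At an unadjusted p under 0.05 by limma there were 7 members with aminaphtone and 12 in controls. The share of all rows at an unadjusted p was not counted. Over that interval 0.266% of all rows passed with aminaphtone and 0.513% in controls with every array. The aminaphtone count became 2 when control replicate 2 at 1 h was dropped (1.65% of all rows). It became 1 on dropping control replicate 1 at 1 h (1.03%), control replicate 1 or 2 at 3 h (0.62% and 0.525%) or aminaphtone replicate 3 at 3 h (0.279%). The control count became 4 on dropping control replicate 1 or 2 at 1 h (1.49% and 1.96% of all rows). It became 2 on dropping control replicate 1 at 3 h (1.03%).

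Some cell type markers also changed over the same interval. Of 6 tested epithelial markers, 3 were lower and 0 higher from 1 to 6 h with aminaphtone (median log2 difference -0.46), and 1 was lower and 0 higher in controls (median -0.32). Of 6 tested urothelial markers, 1 was lower with aminaphtone (median -0.11) and 3 were lower in controls (median -0.33), with none higher. Of 6 tested endothelial markers, 1 was higher with aminaphtone (median 0.16) and 1 in controls (median -0.05), with none lower. Over all rows 10.7% were lower and 6.01% higher with aminaphtone, and 15.2% lower and 11.3% higher in controls. A single call among 6 genes cannot be told apart from these shares. The part of the markers in the changes of the stress response genes was not tested.

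**Figure D1:**
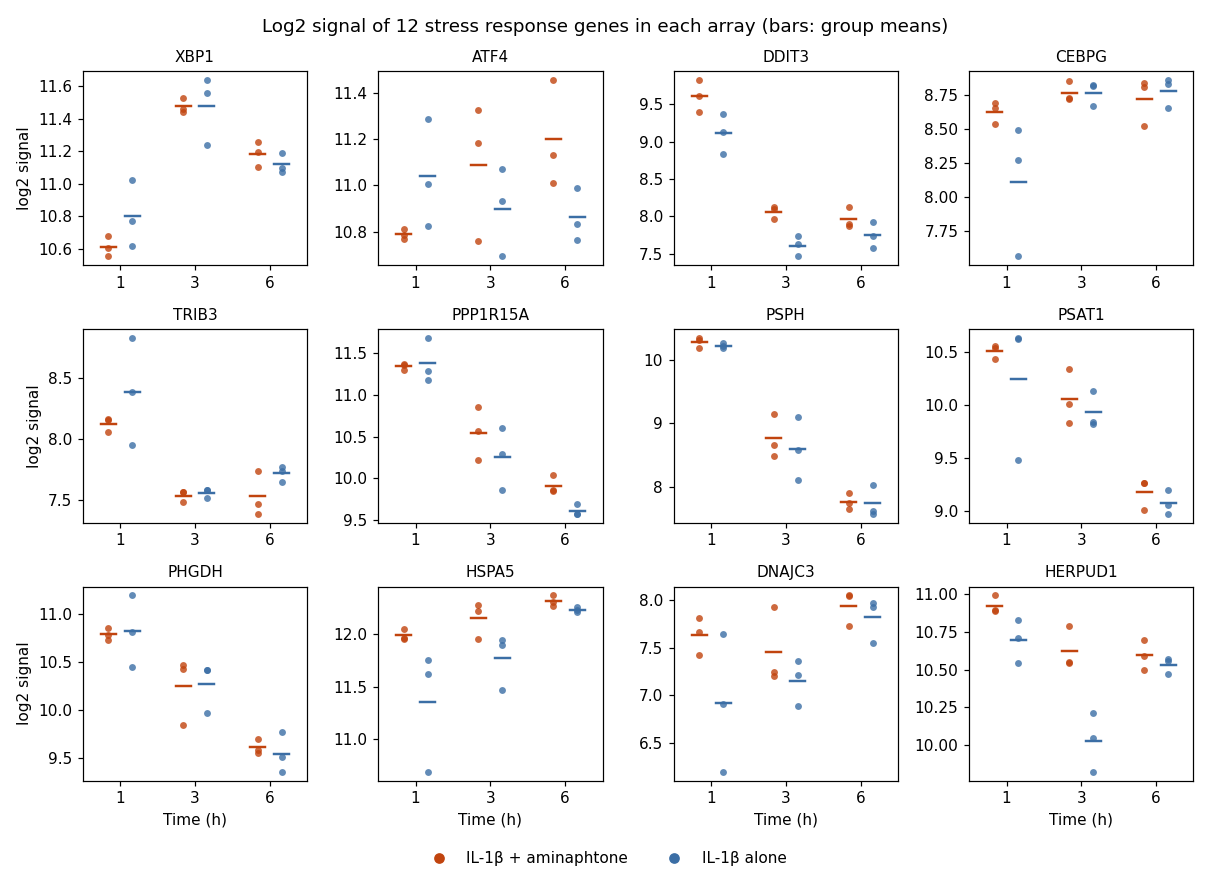
Log2 signal (vertical axis) of 12 members at 1, 3 and 6 h (horizontal axis, hours) in every array, with IL-1β plus aminaphtone on the left of each pair and IL-1β alone on the right; bars are means of 3 arrays. PSPH, PSAT1, PHGDH and PPP1R15A step down over time in both treatments, XBP1 peaks at 3 h, and 1 control array at 1 h lies below the others for HSPA5, DNAJC3 and CEBPG.

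Among sensors and transcription factors, XBP1, the factor that IRE1 activates by splicing, was highest at 3 h. XBP1 signals with aminaphtone were 10.55, 10.60 and 10.68 at 1 h, 11.44, 11.53 and 11.46 at 3 h and 11.26, 11.19 and 11.10 at 6 h. In controls they were 10.77, 10.61 and 11.02 at 1 h, 11.24, 11.56 and 11.64 at 3 h and 11.19, 11.07 and 11.10 at 6 h. Every 3 h array lay above every 1 h array of its treatment, and the 6 h arrays lay between. XBP1 was 1.82-fold higher (log2 difference 0.87, SE 0.119, adjusted p = 0.000154) at 3 h than at 1 h with aminaphtone and 1.6-fold higher (log2 difference 0.68, SE 0.119, adjusted p = 0.00136) in controls. At 6 h it was 1.49-fold higher (log2 difference 0.57, SE 0.119, adjusted p = 0.00299) than at 1 h with aminaphtone, whereas in controls the log2 difference was 0.32 (adjusted p = 0.0576). Spliced and unspliced messengers share this row.

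DDIT3, which encodes the pro-apoptotic factor CHOP, was the transcription factor gene with the steepest fall. DDIT3 signals with aminaphtone were 9.83, 9.40 and 9.61 at 1 h, 8.13, 7.97 and 8.10 at 3 h and 8.13, 7.90 and 7.87 at 6 h. Controls gave 9.37, 8.84 and 9.13 at 1 h, 7.47, 7.63 and 7.73 at 3 h and 7.58, 7.93 and 7.73 at 6 h. All 1 h arrays lay above all later arrays under both treatments. From 1 to 3 h DDIT3 was 2.92-fold lower (log2 difference -1.55, SE 0.147, adjusted p = 3.87e-06) with aminaphtone and 2.83-fold lower (log2 difference -1.50, SE 0.147, adjusted p = 5.53e-06) in controls. From 1 to 6 h it was 3.13-fold lower (log2 difference -1.65, SE 0.147, adjusted p = 1.57e-06) with aminaphtone and 2.58-fold lower (log2 difference -1.37, SE 0.147, adjusted p = 9.71e-06) in controls. ATF4, the factor translated when eIF2α is phosphorylated, did not pass in any comparison of the main fit. From 1 to 6 h with aminaphtone it passed without control replicate 2 at 1 h, where 25.4% of all rows passed. There it also passed when only the arrays compared were fitted (32.9% of all rows) and under array weights (48.7%). Array weights also called it from 1 to 3 h with aminaphtone (30.4%) and in the test of treatment by time (40.4%). ATF4 signals with aminaphtone were 10.78, 10.77 and 10.81 at 1 h, 11.18, 11.32 and 10.76 at 3 h and 11.46, 11.01 and 11.13 at 6 h. Controls gave 10.83, 11.29 and 11.01 at 1 h, 10.69, 11.07 and 10.93 at 3 h and 10.99, 10.77 and 10.83 at 6 h. The 6 h arrays lay above the 1 h arrays with aminaphtone and overlapped them in controls, with log2 differences from 1 to 6 h of 0.41 with aminaphtone (adjusted p = 0.0902) and -0.18 in controls (adjusted p = 0.466).

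CEBPG, a dimer partner of ATF4, was higher at 3 and 6 h than at 1 h in controls, where the 1 h arrays were widely spread. CEBPG signals with aminaphtone were 8.66, 8.69 and 8.54 at 1 h, 8.72, 8.73 and 8.85 at 3 h and 8.52, 8.84 and 8.81 at 6 h. Controls gave 8.49, 7.57 and 8.27 at 1 h, 8.82, 8.67 and 8.82 at 3 h and 8.66, 8.83 and 8.87 at 6 h. The control value of 7.57 at 1 h was the lowest of the 18. In controls CEBPG was 1.58-fold higher (log2 difference 0.66, SE 0.172, adjusted p = 0.0186) at 3 h than at 1 h and 1.6-fold higher (log2 difference 0.68, SE 0.172, adjusted p = 0.00855) at 6 h than at 1 h. Leaving out control replicate 2 at 1 h gave 0.39 (adjusted p = 0.0458) and 0.40 (adjusted p = 0.0236) on the log2 scale. Leaving out control replicate 1 or 3 at 3 h ended the 3 h call (adjusted p = 0.0712 and 0.0653). The sensors ATF6, ERN1 and EIF2AK3 and the factor CEBPB, which acts in inflammation and stress, did not pass in any comparison of the main fit. Their log2 differences from 1 to 6 h ran from -0.05 to 0.29 with aminaphtone and from -0.37 to 0.44 in controls. All of them passed in some alternative fit. CEBPB passed between treatments at 1 h with the replicate block (given with the aminaphtone results). ATF6, EIF2AK3 and CEBPB did so without control replicate 1 at 1 h, where 53.9% of all rows passed. ERN1 passed from 1 to 3 h with aminaphtone under array weights (30.4% of all rows).

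The 9 tested integrated stress response targets had a median log2 difference from 1 to 6 h of -0.60 with aminaphtone and -0.67 in controls, where the medians over all rows were 0.02 and -0.01. The enzymes that make serine from a glycolytic intermediate, PHGDH, PSAT1 and PSPH, were all lower at 6 h in both treatments. PSPH, the phosphatase of the last step, gave 10.33, 10.36 and 10.19 at 1 h, 8.65, 9.14 and 8.49 at 3 h and 7.90, 7.65 and 7.74 at 6 h with aminaphtone. Controls gave 10.27, 10.23 and 10.20 at 1 h, 8.11, 9.10 and 8.58 at 3 h and 7.62, 8.02 and 7.57 at 6 h. Within each treatment the 3 time groups did not overlap. PSPH was 5.78-fold lower (log2 difference -2.53, SE 0.204, adjusted p = 5.24e-07) at 6 h than at 1 h with aminaphtone and 5.65-fold lower (log2 difference -2.50, SE 0.204, adjusted p = 5.16e-07) in controls. Already at 3 h it was 2.89-fold lower (log2 difference -1.53, SE 0.204, adjusted p = 0.000113) with aminaphtone and 3.11-fold lower (log2 difference -1.64, SE 0.204, adjusted p = 6.55e-05) in controls. A second PSPH row had group means of 10.36, 8.31 and 7.23 at 1, 3 and 6 h with aminaphtone, against 10.21, 8.21 and 7.22 in controls.

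PSAT1, the aminotransferase of the same pathway, gave 10.43, 10.54 and 10.56 at 1 h, 10.00, 10.34 and 9.82 at 3 h and 9.01, 9.26 and 9.26 at 6 h with aminaphtone. Controls gave 10.62, 9.48 and 10.64 at 1 h, 9.82, 10.13 and 9.84 at 3 h and 8.97, 9.05 and 9.20 at 6 h. All 6 h arrays lay below all 1 h arrays, and PSAT1 was 2.52-fold lower (log2 difference -1.33, SE 0.228, adjusted p = 0.000696) at 6 h with aminaphtone and 2.25-fold lower (log2 difference -1.17, SE 0.228, adjusted p = 0.00152) in controls. PHGDH, the dehydrogenase of the first step, gave 10.79, 10.86 and 10.73 at 1 h, 10.47, 10.43 and 9.85 at 3 h and 9.70, 9.56 and 9.58 at 6 h with aminaphtone. Controls gave 10.45, 11.20 and 10.82 at 1 h, 9.97, 10.42 and 10.42 at 3 h and 9.51, 9.77 and 9.36 at 6 h. The 1 h and 6 h arrays again did not overlap, with PHGDH 2.26-fold lower (log2 difference -1.18, SE 0.191, adjusted p = 0.000443) at 6 h with aminaphtone and 2.42-fold lower (log2 difference -1.28, SE 0.191, adjusted p = 0.000207) in controls.

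PPP1R15A (GADD34), which directs a phosphatase to eIF2α and so ends the translation block, gave 11.37, 11.36 and 11.30 at 1 h, 10.57, 10.85 and 10.21 at 3 h and 10.04, 9.85 and 9.84 at 6 h with aminaphtone. Controls gave 11.19, 11.69 and 11.28 at 1 h, 9.86, 10.61 and 10.29 at 3 h and 9.69, 9.57 and 9.57 at 6 h. Under both treatments the 3 h arrays lay between the 1 h and the 6 h arrays. PPP1R15A was 1.74-fold lower (log2 difference -0.80, SE 0.18, adjusted p = 0.00834) at 3 h than at 1 h with aminaphtone and 2.2-fold lower (log2 difference -1.14, SE 0.18, adjusted p = 0.00056) in controls. At 6 h it was 2.7-fold lower (log2 difference -1.43, SE 0.18, adjusted p = 4.64e-05) with aminaphtone and 3.42-fold lower (log2 difference -1.78, SE 0.18, adjusted p = 5.67e-06) in controls.

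TRIB3, a pseudokinase that restrains ATF4, gave 8.16, 8.06 and 8.17 at 1 h, 7.56, 7.57 and 7.48 at 3 h and 7.74, 7.47 and 7.39 at 6 h with aminaphtone. Controls gave 7.95, 8.83 and 8.39 at 1 h, 7.52, 7.59 and 7.59 at 3 h and 7.78, 7.74 and 7.65 at 6 h. All 1 h arrays lay above the later arrays of the same treatment, and the 1 h controls were the widest group. TRIB3 was 1.5-fold lower (log2 difference -0.59, SE 0.158, adjusted p = 0.0232) at 3 h than at 1 h with aminaphtone and 1.78-fold lower (log2 difference -0.83, SE 0.158, adjusted p = 0.00261) in controls. At 6 h it was 1.51-fold lower (log2 difference -0.60, SE 0.158, adjusted p = 0.015) than at 1 h with aminaphtone and 1.59-fold lower (log2 difference -0.67, SE 0.158, adjusted p = 0.00546) in controls. With aminaphtone the 3 h call did not survive leaving out any of the 6 arrays compared (adjusted p from 0.0518 to 0.0922). At 6 h leaving out aminaphtone replicate 1 or 3 at 1 h or aminaphtone replicate 2 or 3 at 6 h ended the call (adjusted p from 0.0507 to 0.0697).

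ASNS, asparagine synthetase, gave 9.30, 9.05 and 8.94 at 1 h, 8.87, 8.89 and 8.61 at 3 h and 8.47, 8.43 and 8.63 at 6 h with aminaphtone. Controls gave 8.75, 8.43 and 8.55 at 1 h, 8.72, 8.54 and 8.89 at 3 h and 8.38, 8.70 and 8.18 at 6 h. The 6 h arrays lay below the 1 h arrays with aminaphtone and overlapped them in controls. ASNS was 1.5-fold lower (log2 difference -0.59, SE 0.146, adjusted p = 0.00987) at 6 h than at 1 h with aminaphtone, a call that ended on leaving out aminaphtone replicate 1 at 1 h (adjusted p = 0.0654), while the control difference was -0.15 (adjusted p = 0.497). CHAC1, which breaks down glutathione, SESN2, a stress-induced restraint on growth signalling, and SLC3A2, the heavy chain of amino acid transporters, did not pass in any comparison of the main fit. Their log2 differences from 1 to 6 h ran from -0.58 to 0.05 with aminaphtone and from -0.58 to 0.09 in controls.

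ER chaperones were higher at 6 h than at 1 h in controls for 4 of 13 tested folding genes, and none passed with aminaphtone, where 2 had an unadjusted p under 0.05. HSPA5 (BiP), the main ER chaperone, whose promoter with its ERSE is shown above, gave 11.96, 11.96 and 12.05 at 1 h, 12.22, 11.96 and 12.28 at 3 h and 12.37, 12.31 and 12.26 at 6 h with aminaphtone. Controls gave 11.75, 10.69 and 11.62 at 1 h, 11.90, 11.46 and 11.95 at 3 h and 12.26, 12.23 and 12.21 at 6 h. Control replicate 2 at 1 h was the lowest array, and all 6 h arrays lay above all 1 h arrays under both treatments. HSPA5 was 1.84-fold higher (log2 difference 0.88, SE 0.203, adjusted p = 0.00476) at 6 h in controls, or 0.55 on the log2 scale with control replicate 2 at 1 h left out (adjusted p = 0.00838). With aminaphtone the log2 difference was 0.32 (adjusted p = 0.31).

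HSP90B1 (GRP94), the ER member of the HSP90 family with 2 ERSE copies, gave 12.02, 11.82 and 11.74 at 1 h, 11.40, 11.25 and 11.88 at 3 h and 11.53, 11.88 and 11.87 at 6 h with aminaphtone. Controls gave 11.90, 10.92 and 10.97 at 1 h, 12.19, 11.52 and 11.76 at 3 h and 11.94, 11.97 and 11.99 at 6 h. At 1 h control replicate 1 was near the aminaphtone arrays and replicates 2 and 3 lay below every other array. HSP90B1 was 1.63-fold higher (log2 difference 0.71, SE 0.23, adjusted p = 0.0308) at 6 h than at 1 h in controls. It no longer passed on leaving out control replicate 2 at 1 h (log2 0.54, adjusted p = 0.135), control replicate 3 at 1 h (log2 0.56, adjusted p = 0.13) or any 6 h control (adjusted p from 0.0674 to 0.0858). With aminaphtone the log2 difference was -0.10 (adjusted p = 0.811).

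DNAJC3, a co-chaperone of BiP, gave 7.81, 7.42 and 7.66 at 1 h, 7.20, 7.24 and 7.93 at 3 h and 7.73, 8.05 and 8.04 at 6 h with aminaphtone. Controls gave 7.65, 6.20 and 6.91 at 1 h, 7.36, 6.89 and 7.21 at 3 h and 7.97, 7.55 and 7.93 at 6 h. The 1 h and 6 h controls overlapped, since control replicate 1 at 1 h lay above 1 of the 6 h arrays. DNAJC3 was 1.86-fold higher (log2 difference 0.90, SE 0.274, adjusted p = 0.023) at 6 h in controls, and with control replicate 2 at 1 h left out the log2 difference was 0.54 (adjusted p = 0.127). It also failed to pass on leaving out control replicate 3 at 1 h (adjusted p = 0.0575) or control replicate 1 or 3 at 6 h (adjusted p = 0.0775 and 0.081). MANF, a secreted ER protein, gave 10.13, 10.06 and 10.04 at 1 h, 10.37, 10.10 and 10.21 at 3 h and 10.57, 10.29 and 10.35 at 6 h with aminaphtone. Controls gave 9.90, 10.14 and 10.03 at 1 h, 10.38, 9.96 and 10.26 at 3 h and 10.63, 10.42 and 10.39 at 6 h. The 1 h and 6 h groups did not overlap under either treatment. MANF was 1.37-fold higher (log2 difference 0.46, SE 0.125, adjusted p = 0.0125) at 6 h in controls, a call ended by leaving out control replicate 1 at 6 h (adjusted p = 0.0649). With aminaphtone the difference was 0.33 (adjusted p = 0.0876).

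The other 9 tested folding genes did not pass in any comparison of the main fit. They are the BiP co-chaperones DNAJB9, DNAJB11 and SDF2L1, the exchange factor HYOU1, the disulphide isomerases PDIA4 and PDIA6, CRELD2, and the lectin chaperones CALR and CANX. Their log2 differences from 1 to 6 h ran from -0.15 to 0.33 with aminaphtone and from -0.12 to 0.44 in controls. Some passed in alternative fits. With the replicate block, CANX passed between treatments at 1 h (given with the aminaphtone results) and DNAJB11 from 1 to 6 h in controls. In the latter fit 28.2% of all rows passed. Without control replicate 1 at 1 h, DNAJB11, PDIA6, CRELD2 and CANX passed between treatments at 1 h, where 53.9% of all rows passed. HYOU1 passed from 1 to 6 h with aminaphtone when only the arrays compared were fitted (32.9% of all rows). Further calls came with array weights.

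Genes of ER-associated degradation moved in both directions. HERPUD1, which organises the membrane ligase complex and whose promoter holds an ERSE-II and an amino acid response core, gave 10.90, 10.89 and 10.99 at 1 h, 10.79, 10.54 and 10.55 at 3 h and 10.69, 10.50 and 10.59 at 6 h with aminaphtone. Controls gave 10.54, 10.71 and 10.83 at 1 h, 10.05, 9.82 and 10.21 at 3 h and 10.57, 10.55 and 10.47 at 6 h. The 3 h controls were the lowest group and overlapped no other group. HERPUD1 was 1.59-fold lower (log2 difference -0.67, SE 0.116, adjusted p = 0.0013) at 3 h than at 1 h in controls, while with aminaphtone the log2 difference was -0.30 (adjusted p = 0.122). SYVN1 (HRD1), the ubiquitin ligase of that complex, gave 8.96, 9.02 and 9.20 at 1 h, 9.31, 9.05 and 8.97 at 3 h and 9.44, 9.21 and 9.21 at 6 h with aminaphtone. Controls gave 9.11, 9.89 and 9.54 at 1 h, 8.62, 8.75 and 8.95 at 3 h and 9.26, 9.03 and 9.03 at 6 h. The 3 h controls again lay lowest, and SYVN1 was 1.68-fold lower (log2 difference -0.74, SE 0.164, adjusted p = 0.00661) at 3 h than at 1 h in controls, against a log2 difference of 0.05 with aminaphtone (adjusted p = 0.906).

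EDEM1, which picks out misfolded glycoproteins for removal, gave 8.03, 7.97 and 7.93 at 1 h, 8.18, 8.06 and 8.48 at 3 h and 8.07, 8.20 and 8.26 at 6 h with aminaphtone. Controls gave 8.03, 6.80 and 7.56 at 1 h, 8.08, 7.63 and 8.12 at 3 h and 8.11, 8.15 and 8.54 at 6 h. Control replicate 2 at 1 h was the lowest array. EDEM1 was 1.75-fold higher (log2 difference 0.80, SE 0.226, adjusted p = 0.0148) at 6 h than at 1 h in controls, but 0.47 on the log2 scale with control replicate 2 at 1 h left out (adjusted p = 0.0704). It did not pass with control replicate 3 at 6 h left out either (adjusted p = 0.0803). DERL1 and DERL2 encode membrane proteins through which clients leave the ER. DERL1 gave 10.47, 10.40 and 10.43 at 1 h, 10.65, 10.51 and 10.69 at 3 h and 10.76, 10.70 and 10.73 at 6 h with aminaphtone. Controls gave 10.37, 9.93 and 10.20 at 1 h, 10.32, 10.22 and 10.57 at 3 h and 10.69, 10.63 and 10.74 at 6 h. All 6 h arrays lay above all 1 h arrays, and DERL1 was 1.44-fold higher (log2 difference 0.52, SE 0.117, adjusted p = 0.00388) in controls, with a log2 difference of 0.30 with aminaphtone (adjusted p = 0.0932).

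DERL2 gave 10.13, 10.14 and 10.09 at 1 h, 10.32, 10.06 and 10.30 at 3 h and 10.59, 10.33 and 10.47 at 6 h with aminaphtone. Controls gave 10.11, 9.91 and 10.10 at 1 h, 10.18, 10.16 and 10.16 at 3 h and 10.56, 10.36 and 10.37 at 6 h. The 6 h arrays lay above the 1 h arrays under both treatments. DERL2 was 1.27-fold higher (log2 difference 0.34, SE 0.106, adjusted p = 0.0338) at 6 h with aminaphtone and 1.31-fold higher (log2 difference 0.39, SE 0.106, adjusted p = 0.0127) in controls. The aminaphtone call ended on leaving out aminaphtone replicate 1, 2 or 3 at 1 h or aminaphtone replicate 1 or 3 at 6 h (adjusted p from 0.0756 to 0.149), with each array centred on its median (adjusted p = 0.05002) and with a trended, robust variance (adjusted p = 0.0588). The control call ended on leaving out control replicate 1 at 6 h (adjusted p = 0.0681). SEL1L, the adaptor of SYVN1, did not pass in any comparison of the main fit, with 1 to 6 h differences of -0.11 with aminaphtone and 0.37 in controls. None of the 36 genes passed the test of whether its time course differed between treatments, given below, so calls present in 1 treatment and absent in the other are not shown to differ.

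**Figure D2:**
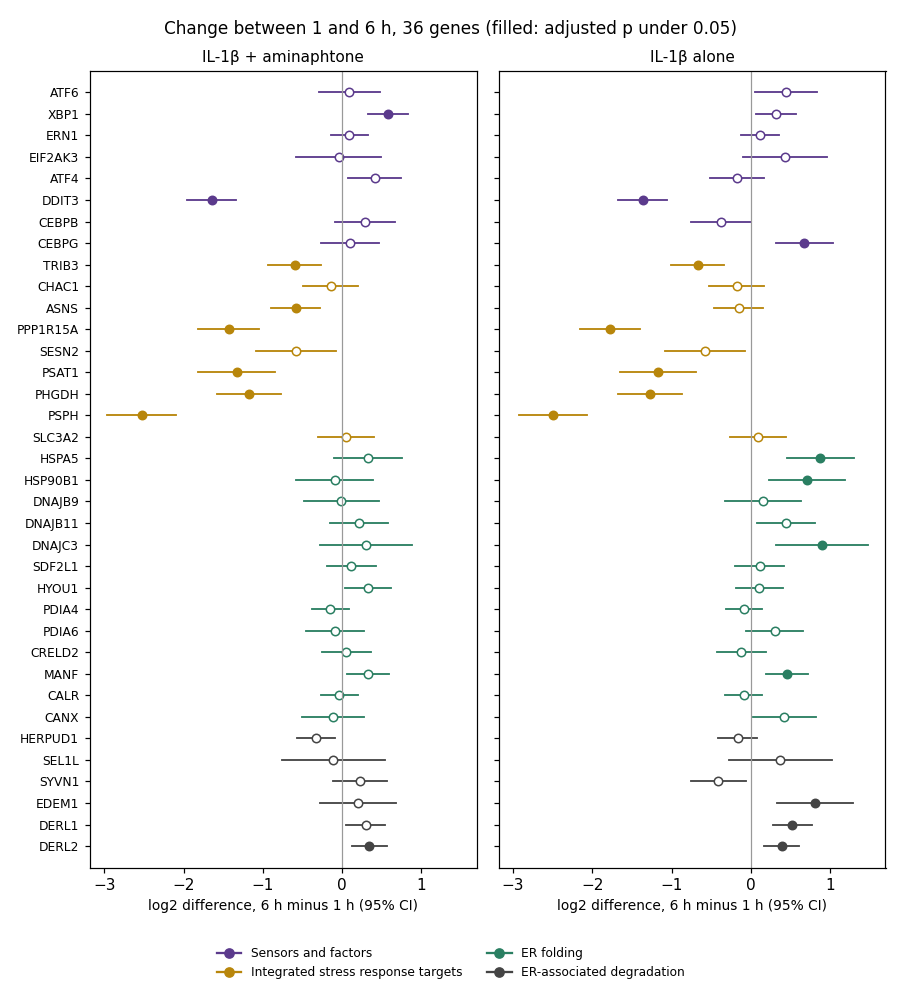
Log2 difference between 6 h and 1 h (horizontal axis) for 36 tested genes (rows, coloured by role), with 95% confidence intervals, in cells given IL-1β plus aminaphtone (left) and IL-1β alone (right); filled points passed the adjusted threshold. PSPH lies furthest to the left in both panels, at -2.53 and -2.50, and 7 of 13 folding genes lie above 0 on the left and 10 of 13 on the right.

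Aminaphtone was then set against IL-1β alone. Averaged over 1, 3 and 6 h, DDIT3 and HERPUD1 were higher with aminaphtone, and no other member passed. At single times no member passed by limma. DDIT3 was 1.31-fold higher (log2 difference 0.39, SE 0.0848, adjusted p = 0.0416) on average, with log2 differences of 0.50, 0.45 and 0.22 at 1, 3 and 6 h. The aminaphtone arrays lay above the controls without overlap at 1 and 3 h and overlapped them at 6 h. HERPUD1 was 1.23-fold higher (log2 difference 0.30, SE 0.0671, adjusted p = 0.0478) on average, with 0.23, 0.60 and 0.06 at the 3 times. Its groups were likewise apart at 1 and 3 h only. The adjusted p at 3 h was 0.0932 for HERPUD1 and 0.478 for DDIT3.

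That count is 2 higher and 0 lower of 36, where 0.424% of all rows were higher and 0.405% lower on average. The members were chosen with earlier results of these data known. Their shares of calls, here and over time, therefore describe the list and do not test for an excess. The median difference of the members was 0.10, against -0.02 over all rows, and 29 of 36 were above 0. Both calls rest on adjusted p values near the threshold, and each was kept in 4 of 18 fits that left out 1 array (highest adjusted p 0.111 for each gene). DDIT3 was kept on leaving out aminaphtone replicate 2 at 1 h, control replicate 1 or 2 at 1 h or control replicate 2 at 6 h, and HERPUD1 on leaving out control replicate 1, 2 or 3 at 1 h or control replicate 3 at 3 h. The count rose to 13 when control replicate 1 at 1 h was left out, where 13.4% of all rows were higher and 8.36% lower. The count was 2 on leaving out control replicate 2 at 1 h (1.24% of all rows passed). It was 1 on leaving out aminaphtone replicate 2 at 1 h (0.519%) or control replicate 3 at 1 h (0.639%), 3 at 3 h (0.557%) or 2 at 6 h (0.481%). It was 0 on leaving out any of the other 12 arrays. HERPUD1 was also lost with the filter at the median (adjusted p = 0.053) and with a trended, robust variance (adjusted p = 0.0636).

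At 1 h 0 of 36 members passed with limma, where 0.0506% of all rows were higher and 0.038% lower at the adjusted threshold. At an unadjusted p under 0.05 by limma there were 14 members, and the share of all rows at that threshold was not counted. The median difference was 0.14, against -0.10 over all rows. ER genes had the largest positive values, with 0.75 for SEL1L, 0.72 for DNAJC3, 0.63 for HSPA5, 0.60 for HSP90B1 and 0.59 for CANX. EIF2AK3 (0.56), ASNS (0.52) and CEBPG (0.52) came next. CEBPB had the most negative value, -0.61, followed by SYVN1 at -0.46. Medians were 0.24 for folding genes, 0.25 for degradation genes, 0.25 for sensors and transcription factors and 0.03 for stress response targets. Among 12 tested cytosolic heat shock genes the median was 0.28, and 8 had an unadjusted p under 0.05 by limma. Treated and control arrays of equal number deviated together at 1 h, so the number was tried as a block, although the labels state no pairing. That choice was made on these same arrays and favours a narrower spread, so the calls it gave are no independent support. Between aminaphtone at 1 and 6 h the same-number correlations were -0.678, -0.222 and -0.108. With the block, 8 members passed. DDIT3 (adjusted p = 0.0396), CEBPG (0.0488), ASNS (0.0451), HSPA5 (0.0409), HSP90B1 (0.0487), DNAJC3 (0.0469) and CANX (0.0419) were higher, and CEBPB (0.0233) was lower. In that fit 10.9% of all rows were higher and 4.75% lower.

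The 1 h differences turned on single control arrays. HSPA5 stood at 11.96, 11.96 and 12.05 with aminaphtone, against 11.75, 10.69 and 11.62 in controls, without overlap. Leaving out control replicate 1, 2 or 3 in turn gave differences of 0.83, 0.30 and 0.77. SEL1L stood at 9.35, 9.04 and 8.93 with aminaphtone, against 9.31, 7.52 and 8.25 in controls. Its groups overlapped, and the same omissions gave 1.22, 0.33 and 0.69. Without control replicate 1, 18 members passed (14 higher and 4 lower), but 26.4% of all rows were then higher and 27.5% lower. Without control replicate 2 or 3 no member passed. DDIT3 and ASNS kept differences of 0.36 and 0.45 without replicate 2 (adjusted p = 0.689 and 0.611).

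**Figure D3:**
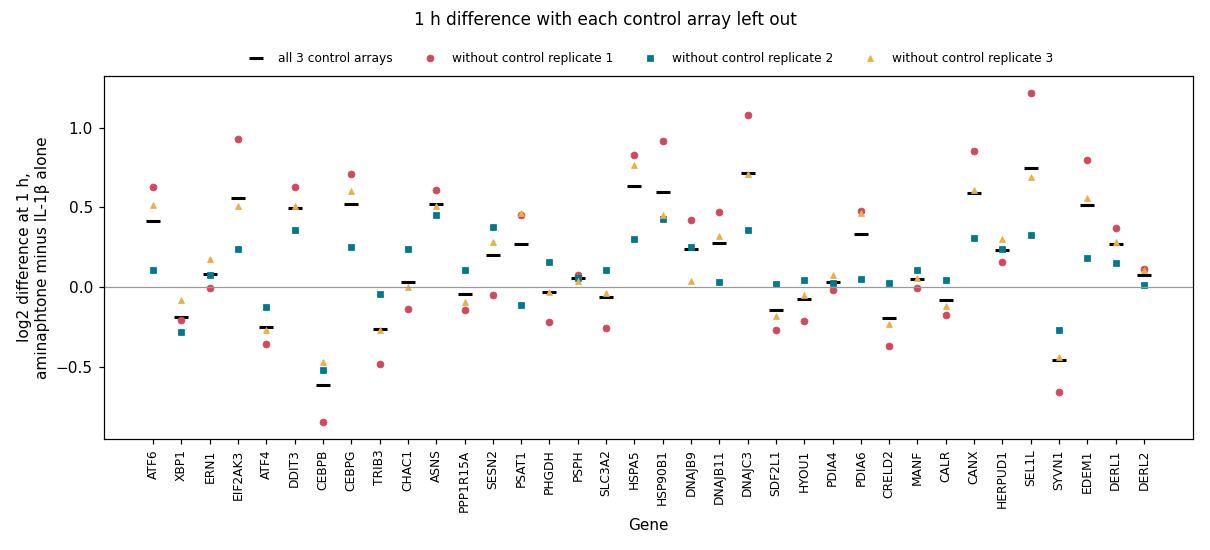
Log2 difference at 1 h, aminaphtone minus IL-1β alone (vertical axis), for 36 tested genes (horizontal axis), with all 3 control arrays (black bars) and with each control array left out (coloured points). HSPA5 lies at 0.83, 0.30 and 0.77 without replicates 1, 2 and 3, and the points without replicate 1 lie furthest from 0 for 16 of the 19 tested folding and degradation genes.

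At 3 h 0 of 36 members passed with limma, where 0.019% of all rows were higher and 0.019% lower at the adjusted threshold. HERPUD1 and DDIT3 were the 2 members with an unadjusted p under 0.05. Here, at 6 h and for the test of treatment by time, shares of all rows at an unadjusted p were not counted. HERPUD1 passed at 3 h, as the 1 member called, on leaving out control replicate 1 or 2 at 1 h (adjusted p = 0.0412 and 0.036). In those fits 0.133% and 0.304% of all rows passed. The members' median was 0.12, against 0.00 over all rows. At 6 h 0 passed, where 0% of all rows were higher and 0.108% lower at the adjusted threshold. ATF4, at 0.34, was the 1 member with an unadjusted p under 0.05. ATF4 arrays were 11.46, 11.01 and 11.13 with aminaphtone and 10.99, 10.77 and 10.83 in controls at 6 h, without overlap. At 1 h the ATF4 groups were also apart, in the other direction (log2 difference -0.25). Differences at 6 h ran from -0.21 to 0.34 over the 36 genes, and their 95% intervals reached from -0.69 (HSP90B1) to 0.91 (SEL1L). Each interval is for 1 gene without adjustment for their number, so together they do not exclude larger differences. VLDLR is not among these 36 and is given below. In the test of treatment by time 5 members had an unadjusted p under 0.05 by limma. None passed the adjusted threshold, which 0.038% of all rows passed, and the smallest adjusted p was 0.521 (SYVN1). Leaving out control replicate 1 at 1 h gave 7 of 36, where 19% of all rows passed.

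**Figure D4:**
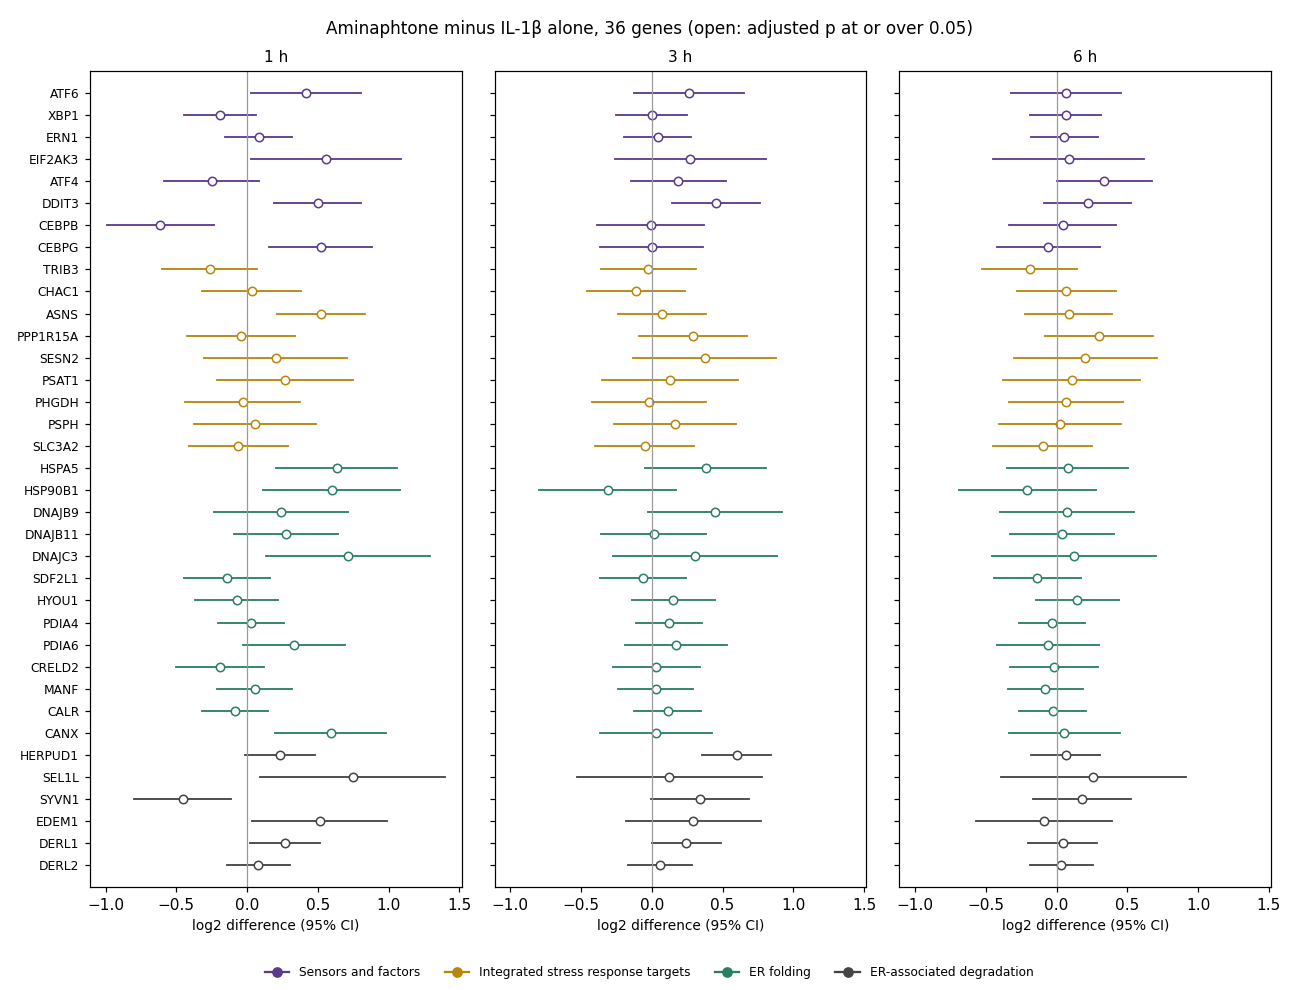
Log2 difference, aminaphtone minus IL-1β alone (horizontal axis), at 1, 3 and 6 h (panels) for 36 tested genes (rows, coloured by role), with 95% confidence intervals; open points did not pass the adjusted threshold, and none passed. Values spread from -0.61 to 0.75 at 1 h and narrow to -0.21 to 0.34 at 6 h.

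VLDLR, which lay under the filter, gave 5.95, 6.20 and 6.20 at 1 h, 6.04, 5.87 and 6.01 at 3 h and 5.99, 6.07 and 5.96 at 6 h with aminaphtone. Controls gave 6.20, 6.20 and 6.15 at 1 h, 6.38, 5.93 and 5.96 at 3 h and 6.74, 6.65 and 6.69 at 6 h. The 6 h controls were the only group that stood above the rest. Without the filter, VLDLR was 1.61-fold lower with aminaphtone at 6 h (log2 difference -0.69, SE 0.115, adjusted p = 0.0335), a call kept in 9 of 18 fits that left out 1 array (highest adjusted p 0.273). It ended on leaving out aminaphtone replicate 2 or 3 at 1 h, aminaphtone replicate 1 at 3 h, control replicate 1, 2 or 3 at 6 h or aminaphtone replicate 1, 2 or 3 at 6 h. In controls it was higher at 6 h than at 3 h by 0.60 on the log2 scale (adjusted p = 0.0277, kept in 13 of 18 and ended by leaving out control replicate 2 or 3 at 3 h or control replicate 1, 2 or 3 at 6 h) and than at 1 h by 0.51 (adjusted p = 0.00512, kept in 18 of 18).

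Other genes of the same pathways were counted from 4 further lists. Of 26 tested among 28 other integrated stress response genes, 3 lower and 3 higher passed from 1 to 6 h with aminaphtone and 7 lower and 6 higher in controls. Over all rows 10.7% were lower and 6.01% higher with aminaphtone, and 15.2% lower and 11.3% higher in controls, which holds for the 1 to 6 h counts of each list here. ATF3, a factor induced by ATF4, was 2.48-fold lower (log2 difference -1.31, SE 0.149, adjusted p = 1.73e-05) with aminaphtone and 2.56-fold lower (log2 difference -1.35, SE 0.149, adjusted p = 1.27e-05) in controls. STC2, a secreted glycoprotein gene induced by ER stress, ran the other way, 2.21-fold higher (log2 difference 1.15, SE 0.165, adjusted p = 0.000174) with aminaphtone and 4.32-fold higher (log2 difference 2.11, SE 0.165, adjusted p = 3.33e-07) in controls. SHMT2, a mitochondrial serine-using enzyme, was 1.63-fold lower (log2 difference -0.71, SE 0.153, adjusted p = 0.00408) with aminaphtone and 1.66-fold lower (log2 difference -0.73, SE 0.153, adjusted p = 0.0026) in controls. These calls were kept in all 18 fits that left out 1 array.

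In the aminaphtone comparisons 1 lower and 0 higher of these 26 passed at 6 h and 1 lower and 1 higher on average, and none at 1 or 3 h (7 and 4 at an unadjusted p under 0.05 by limma). At the adjusted threshold 0.108% of all rows were lower and 0% higher at 6 h, and 0.405% lower and 0.424% higher on average. Shares of all rows at an unadjusted p were not counted. STC2 was 1.93-fold lower (log2 difference -0.95, SE 0.165, adjusted p = 0.0355) with aminaphtone at 6 h, kept in 9 of 18 fits that left out 1 array and ended by leaving out aminaphtone replicate 1, 2 or 3 at 1 h, control replicate 1 at 3 h, control replicate 1 or 3 at 6 h or aminaphtone replicate 1, 2 or 3 at 6 h (adjusted p up to 0.308). CTH, which makes cysteine, was 1.39-fold higher (log2 difference 0.47, SE 0.0878, adjusted p = 0.0163) on average, kept in 16 of 18 and ended by leaving out aminaphtone replicate 1 at 1 h or control replicate 1 at 6 h (adjusted p up to 0.0534). DDIT4, an inhibitor of mTOR signalling, was 1.61-fold lower (log2 difference -0.69, SE 0.134, adjusted p = 0.0227) on average, kept in 11 of 18 and ended by leaving out aminaphtone replicate 1 or 2 at 1 h, control replicate 2 at 3 h, aminaphtone replicate 3 at 3 h, control replicate 1 at 6 h or aminaphtone replicate 2 or 3 at 6 h (adjusted p up to 0.0667). No member of the other 3 lists passed in an aminaphtone comparison.

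Of 19 tested aminoacyl-tRNA synthetases, 2 lower and 0 higher passed from 1 to 6 h with aminaphtone and 2 lower and 4 higher in controls. AARS1, the alanine enzyme, was 1.79-fold lower (log2 difference -0.84, SE 0.19, adjusted p = 0.00551) with aminaphtone and 1.78-fold lower (log2 difference -0.84, SE 0.19, adjusted p = 0.00442) in controls. RARS1 (log2 difference 0.70, adjusted p = 0.00467) and FARSB (log2 difference 0.72, adjusted p = 0.00799) were among those higher in controls. Their control SDs were 0.329 and 0.496 at 1 h, against 0.136 and 0.129 at 6 h. Of 35 tested other ER genes, 0 lower and 2 higher passed with aminaphtone and 3 lower and 7 higher in controls. SRPRB, a subunit of the signal recognition particle receptor, was 1.4-fold higher (log2 difference 0.48, SE 0.127, adjusted p = 0.0138) with aminaphtone and 1.55-fold higher (log2 difference 0.63, SE 0.127, adjusted p = 0.00185) in controls. With aminaphtone this call ended on leaving out aminaphtone replicate 2 at 1 h or aminaphtone replicate 1 at 6 h (adjusted p up to 0.0636). Of 12 tested cytosolic heat shock genes, a response separate from that of the ER, 2 lower and 0 higher passed with aminaphtone and 3 lower and 6 higher in controls. HSPB1, a small heat shock protein, was 1.59-fold lower (log2 difference -0.67, SE 0.128, adjusted p = 0.00155) with aminaphtone and 1.79-fold lower (log2 difference -0.84, SE 0.128, adjusted p = 0.00024) in controls. DNAJB1 was 3.26-fold lower with aminaphtone (log2 difference -1.71, adjusted p = 1.91e-05). HSPH1 (log2 difference 1.39, adjusted p = 0.00262) and DNAJA1 (log2 difference 1.09, adjusted p = 0.001) were among those higher in controls. Their control SDs were 0.766 and 0.489 at 1 h, against 0.0759 and 0.107 at 6 h. The median 1 to 6 h differences with aminaphtone and in controls were -0.12 and -0.19 for the integrated stress response list, -0.06 and 0.27 for the synthetases, -0.03 and 0.26 for the other ER genes and -0.04 and 0.25 for the heat shock genes, beside 0.02 and -0.01 over all rows. By limma no gene of these lists passed the test of treatment by time (smallest adjusted p 0.521), where 0.038% of all rows passed. Calls given for 1 treatment alone are thus not shown to differ between treatments.

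Counts from 1 to 3 h in these lists were 3 lower and 3 higher with aminaphtone and 4 lower and 3 higher in controls for the integrated stress response list, and 1 lower and 0 higher against 1 lower and 1 higher for the synthetases. For the other ER genes they were 0 lower and 3 higher with aminaphtone and 1 lower and 1 higher in controls, and for the heat shock genes 0 lower and 1 higher against 2 lower and 2 higher. Over all rows 5.45% were lower and 5.09% higher with aminaphtone, and 7.98% lower and 4.81% higher in controls. From 3 to 6 h STC2 was 2.37-fold higher (log2 difference 1.24, SE 0.165, adjusted p = 0.00472) with aminaphtone and 3.84-fold higher (log2 difference 1.94, SE 0.165, adjusted p = 2.56e-05) in controls. DNAJB1, a cytosolic co-chaperone, was 2.26-fold lower (log2 difference -1.18, SE 0.196, adjusted p = 0.0204) with aminaphtone, kept in 13 of 18 fits and ended by leaving out aminaphtone replicate 1 or 2 at 3 h or aminaphtone replicate 1, 2 or 3 at 6 h (adjusted p up to 0.203). No other list member passed over that interval, where 0.241% of all rows were lower and 0.0253% higher with aminaphtone, and 0.165% lower and 0.348% higher in controls.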

How the data were processed

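Each of 18 RNA samples of ECV304 cells went onto 1 Affymetrix Human Gene 1.0 ST array. Per the submitters' processing notes, the authors deposited log2 values from RMA in Affymetrix Expression Console, without a version. Which arrays were normalized together is not given in the sources used here. Arrays have no read depth, and 3 per group limit the precision.

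Of 28869 transcript clusters, 21062 carry a gene annotation and 19310 a single symbol. Annotated clusters whose mean over 18 arrays exceeded 6.193, their 25th percentile, numbered 15796 and were fitted with limma 3.58.1 (R 4.3.3), with 1 mean per group over all 18 arrays (12 residual and 4.814 prior degrees of freedom). The Benjamini-Hochberg adjustment of the two-sided p-values covered all 15796, at a threshold of 0.05. Comparisons were aminaphtone against IL-1β alone at each time and on average, its interaction with time, and the times within each treatment. Comparisons between treatments share arrays with those between times. The method was tested on simulated data.

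The members, roles and other lists were chosen with earlier results of these data known. By the rule for named genes, every array is given for members called in any comparison and for ATF4, DDIT3, XBP1 and HSPA5; SEL1L and VLDLR were added after their values were seen. From other lists up to 4 genes per comparison, by p, could be named. P-values measure the spread between experiments that the series' design text calls independent.

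Replicate numbers were taken to pair arrays where all 3 same-number correlations of deviations from group means exceeded 0.1, which the labels do not state. This held at 1 h between treatments (0.746, 0.411 and 0.322) and between controls at 1 and 3 h (0.313, 0.359 and 0.258). It failed in the other comparisons of 2 groups. Between aminaphtone at 1 and 6 h the correlations were -0.678, -0.222 and -0.108. Between aminaphtone at 3 and 6 h they were 0.662, -0.270 and 0.691. Alternatives were no filter, a filter at the median (7.534), centring on array medians, trended and robust variance, array weights (estimated gene by gene), only the arrays compared, the replicate block, the mean of all rows of a gene and leaving out each array. The block was fitted within each time for comparisons between treatments and for the interaction. For comparisons between times it was shared by all times and both treatments.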

Additional observations from a re-analysis of the deposited data

How the results depend on the processing

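Of the 38 calls of members, 26 were kept whichever array was left out, 20 under every other alternative and 16 under both. Another 16 were lost, among the other alternatives, only in the fit of the arrays compared, and 0 changed direction. That fit has fewer degrees of freedom and no shared spread. It called 8, 2 and 16 members with aminaphtone from 1 to 3, 3 to 6 and 1 to 6 h, where 16.9%, 1.04% and 32.9% of all rows passed. In controls it called 2, 1 and 4, where 1.44%, 1.05% and 6.89% of all rows passed. Array weights, lowest for control replicates 1 and 2 at 1 h (0.158 and 0.13), called more. For aminaphtone against IL-1β alone they gave 17, 1 and 5 members at 1, 3 and 6 h, 18 on average and 12 for the interaction, where 62.7%, 1.82%, 17.7%, 42.9% and 40.4% of all rows passed. Over time they gave 15, 12 and 19 with aminaphtone from 1 to 3, 3 to 6 and 1 to 6 h, and 22, 11 and 26 in controls, where 30.4%, 32% and 48.7% of all rows passed with aminaphtone and 49.9%, 13.1% and 59.6% in controls. With no filter 1 member (VLDLR) passed at 6 h and 1 in controls from 3 to 6 h (0.0855% and 0.38% of all rows). The filter at the median left 1 on average (0.826%) and gave 1 with aminaphtone from 3 to 6 h (0.361%), and DNAJC3 and CHAC1 were not tested under it. Trended and robust variance left 1 on average (0.81%). With the replicate block 8 members passed at 1 h (15.6% of all rows). PSPH alone (1 member) passed with it from 3 to 6 h in each treatment, where the numbers did not pair the arrays. In those 2 comparisons 0.247% of all rows passed with aminaphtone and 0.722% in controls. For the 2 comparisons with pairs, the block changed no call other than those given with them. Leaving out 1 array gave 0 to 18 members at 1 h, 0 to 1 at 3 h and 0 to 0 at 6 h. It gave 0 to 13 on average and 0 to 7 for the interaction. Over time it gave 4 to 8, 0 to 2 and 6 to 12 with aminaphtone, and 7 to 20, 0 to 4 and 10 to 23 in controls, in the order above. The causes of these changes were not tested. The spread of the 1 h controls, a median SD of 0.377 over the 37 genes, limits the precision of comparisons that use them.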
